A study of Mus musculus with 9 samples.

Results

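The genes described here are 7 of the 38293 genes counted: the hyperpolarization-activated channel genes *Hcn2*, *Hcn3* and *Hcn4*, the T-type calcium channel genes *Cacna1g* and *Cacna1h*, and the transcription factor genes *Shox2* and *Isl1*. They were chosen by name, as channels and factors of the cardiac pacemaker, with earlier results of these data known. They were matched by symbol to their Ensembl identifiers. Total RNA of ventricles at P7 was sequenced from 5 Arid1a f/f control mice and 4 aMHC-Cre;Arid1a f/f mice (cKO). All 9 animals carried the floxed *Arid1a* gene, and controls were littermates without Cre. In the mutants the αMHC promoter drives Cre in cardiomyocytes, so other cells of the ventricle keep the gene. The ARID1A protein binds DNA and belongs to SWI/SNF, a complex that moves nucleosomes. The comparison asked how its loss from cardiomyocytes changes gene expression in the maturing ventricle.

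HCN channels open when the membrane hyperpolarizes, are regulated by cyclic AMP and carry the inward pacemaker current. T-type calcium channels open at low voltage and add to the late part of the diastolic depolarization in nodal cells. Both are best known from the sinoatrial node and the conduction system, and working ventricular cardiomyocytes express more of them in the fetus and newborn than in the adult. SHOX2 and ISL1 are homeodomain factors of the developing sinoatrial node.

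Promoter sequences are shown to place the channel gene that fell most beside its paralog *Hcn2*, and the 2 node factors beside each other. RefSeq promoters were found for 4 of the 7 genes, and the 250 bases before the annotated start are given 5′ to 3′ on the gene's strand (GRCm38.p6). They lie at chr9:58822699-58822948 (+) for *Hcn4*, chr10:79716384-79716633 (+) for *Hcn2*, chr3:66981772-66982021 (-) for *Shox2* and chr13:116309689-116309938 (-) for *Isl1*. Capitals mark the GC box (GGGCGG), the CCAAT box (CCAAT) and the TATA box (TATAAA), each searched on both strands.
Hcn4: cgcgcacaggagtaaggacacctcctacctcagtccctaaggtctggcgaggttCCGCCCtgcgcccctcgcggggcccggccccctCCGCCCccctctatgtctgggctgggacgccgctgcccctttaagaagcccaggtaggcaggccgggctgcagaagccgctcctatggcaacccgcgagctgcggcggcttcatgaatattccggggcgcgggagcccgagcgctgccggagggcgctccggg
Hcn2: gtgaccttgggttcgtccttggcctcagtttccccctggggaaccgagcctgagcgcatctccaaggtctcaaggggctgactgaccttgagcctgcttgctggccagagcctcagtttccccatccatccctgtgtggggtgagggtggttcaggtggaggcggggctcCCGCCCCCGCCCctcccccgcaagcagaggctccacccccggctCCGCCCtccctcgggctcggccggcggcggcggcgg
Shox2: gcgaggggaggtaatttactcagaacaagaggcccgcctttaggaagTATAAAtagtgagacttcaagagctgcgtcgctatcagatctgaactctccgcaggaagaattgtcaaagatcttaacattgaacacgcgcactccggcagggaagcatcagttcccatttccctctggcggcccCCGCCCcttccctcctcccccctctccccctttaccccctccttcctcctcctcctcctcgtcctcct
Isl1: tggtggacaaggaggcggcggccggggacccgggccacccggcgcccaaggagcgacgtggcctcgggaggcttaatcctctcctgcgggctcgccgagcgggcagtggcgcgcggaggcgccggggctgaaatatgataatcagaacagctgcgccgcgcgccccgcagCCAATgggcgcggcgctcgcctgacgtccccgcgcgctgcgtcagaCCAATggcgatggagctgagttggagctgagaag
GC content was 71.2% for *Hcn4*, 70.4% for *Hcn2*, 55.6% for *Shox2* and 71.2% for *Isl1*, against a median of 52.4% over 32536 promoter windows of this length. *Hcn4* held 2 GC boxes, *Hcn2* 3 and *Shox2* 1, and 33.0% of all windows held at least 1. *Isl1* held 2 CCAAT boxes, a motif in 33.8% of windows. *Shox2* held 1 match to the TATA box string, at -203 from the start, a motif found anywhere in 12.3% of windows. Exact strings were searched for a T-box half-site (GGTGTGA, in 3.33% of windows) and a GATA site (AGATAA, 9.97%). An NKX2-5 site (AAGTG, 40.6%) and part of the REST site (TTCAGCACC, 0.301%) were searched in the same way. None of these strings had a match in any of the 4 windows. Other forms of the sites, such as the GATA form TGATAA that the *Isl1* window holds, were not searched. The *Hcn4* window is counted from the RefSeq start, which lies 463 bases before the GENCODE start.

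Each library held 31011055 to 40073801 counts, and 3 counts corresponded to 0.0726 to 0.097 counts per 1e6 counts (CPM, scaled by the trimmed mean of M values). *Arid1a*, the targeted gene, had a mean level of 139.8 ± 8.84 CPM over the controls (SD, n = 5) and of 106 ± 5.44 over the cKO libraries (SD, n = 4), without overlap (log2 fold change -0.39, edgeR adjusted p = 0.001316). The libraries fell into 2 sets by the level of *Rps3a3*, a copy of a ribosomal protein gene: it was at 0.345 to 0.521 CPM in control replicates 1 and 2 and cKO replicates 1 to 3 (Rps3a3-low), and at 99.7 to 112.3 CPM in control replicates 3 to 5 and cKO replicate 4 (Rps3a3-high). Of 15318 genes tested, 1030 were called, that is, had an edgeR adjusted p below 0.05 together with a fold change above 1.5, and 59.6% of these were higher in cKO. With libraries scaled to cardiomyocyte contractile genes that share was 73.8%, and the median log2 fold change of all genes moved from 0.009 to 0.109. Since the tissue was bulk ventricle, fewer cells of a type and less RNA per cell cannot be told apart.

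*Hcn4* and *Cacna1h* fell. *Hcn2* was modestly higher, with a fold under 1.5, and passed the adjusted p in 10 of 19 alternative analyses. *Cacna1g* missed the adjusted p, which it passed in 6 of the 19, and was lower in all of them. *Hcn3* and *Shox2* did not pass the test, while *Isl1* was too low to test. Of the 7 genes, 6 passed the low-count filter. Of these 6, 2 were called, against 6.72% of all tested genes, and both were lower, against 2.72%. The adjusted p alone was passed by 3 of the 6 genes, against 16.3% of all tested genes. The groups did not overlap for 2 of the 6, against 16.7% of all tested genes. The median log2 fold change of the 6 was -0.20, and that of all tested genes was 0.01.

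**Figure D1:**
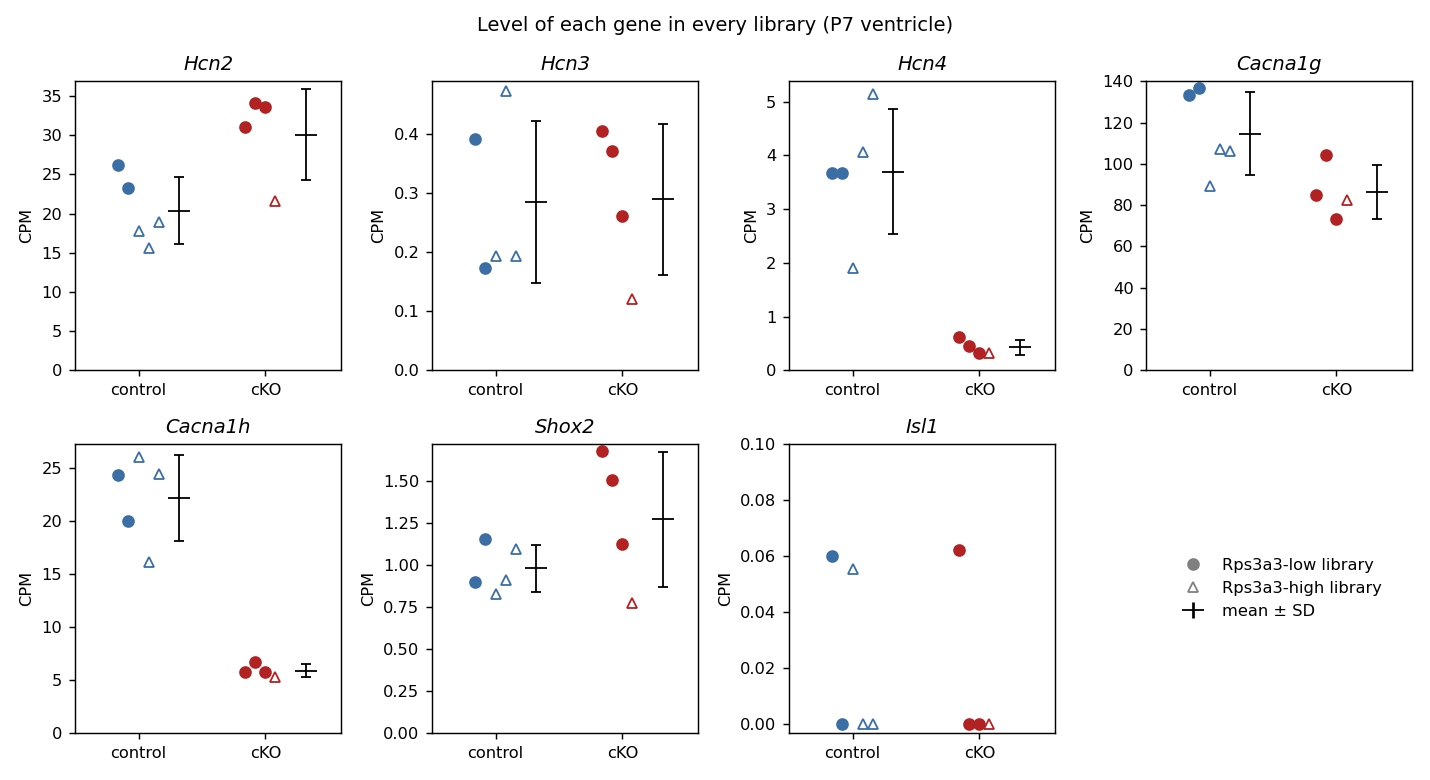
Level of each gene in CPM (linear axis, a separate scale per gene) in every control and cKO library; circles are Rps3a3-low and triangles Rps3a3-high libraries, and bars give the mean ± SD (n = 5 and 4; none is drawn for *Isl1*, at 2 counts or fewer everywhere). For *Hcn4* and *Cacna1h* every cKO library lies below every control library, and for *Hcn2* 3 of 4 cKO libraries lie above all controls.

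*Hcn4* (ENSMUSG00000032338, chromosome 9, 58823412 to 58863175) encodes the main HCN subunit of the sinoatrial node. Control replicates 1 to 5 had 122, 127, 69, 129 and 159 counts, or 3.67, 3.68, 1.91, 4.06 and 5.14 CPM. In cKO replicates 1 to 4 there were 20, 17, 11 and 13 counts, or 0.622, 0.451, 0.319 and 0.315 CPM. Every cKO library was below the lowest control, and all 9 libraries exceeded the filter of 0.293 CPM. The mean fell from 3.69 ± 1.16 to 0.427 ± 0.145 CPM, which is 11.6% of the control mean (log2 fold change -3.11, SE 0.32, edgeR adjusted p = 5.129e-05). An exact permutation test of the 9 libraries, two-sided, gave p = 0.00794, the smallest that its 126 splits allow. The log2 ratio of group means was -2.99 among Rps3a3-low and -3.56 among Rps3a3-high libraries. The call held in all 19 alternatives, with log2 fold changes from -3.34 to -2.96.

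*Hcn2* (ENSMUSG00000020331, chromosome 10, 79716634 to 79736108) encodes a subunit found in atrial and ventricular muscle as well as the nervous system. It was measured at 26.1, 23.3, 17.8, 15.6 and 18.9 CPM in controls and at 31.01, 34.2, 33.5 and 21.6 CPM in cKO. cKO replicate 4 lay inside the control range and the other 3 lay above it. The mean was 20.3 ± 4.29 CPM in controls and 30.1 ± 5.83 CPM in cKO (log2 fold change 0.56, SE 0.168, edgeR adjusted p = 0.04205), a 1.48-fold rise under the fold threshold of 1.5. The exact permutation test gave p = 0.0397. Within the Rps3a3-low and Rps3a3-high libraries the log2 ratios of means were 0.41 and 0.31. *Hcn2* passed both thresholds in 4 of 19 alternatives: with scaling to contractile genes and without control replicate 1, control replicate 2 or cKO replicate 4 (log2 fold changes 0.68, 0.67, 0.62 and 0.69). The adjusted p was over 0.05 without any one of control replicates 3, 4 and 5 and cKO replicates 1, 2 and 3 (0.0795 to 0.124), and the log2 fold change ranged from 0.48 to 0.69 over the 9 fits that left out 1 library.

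*Hcn3* (ENSMUSG00000028051, chromosome 3, 89146074 to 89160196), whose product is a slowly activating HCN subunit, was near the limit of detection. It had 13, 6, 7, 15 and 6 counts in controls and 13, 14, 9 and 5 in cKO, and the groups overlapped. The means were 0.285 ± 0.137 and 0.289 ± 0.128 CPM (log2 fold change 0.01, SE 0.45, edgeR adjusted p = 0.9913). The direction turned in 7 of the 16 alternatives that tested it. No difference was detected, and the SE leaves room for changes in either direction.

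Per kilobase of merged exons, *Hcn2* was the most abundant of *Hcn2*, *Hcn3* and *Hcn4* in all 9 libraries, as the bars of CPM per kb by library show. It made up 90.3% ± 3.42 (SD, n = 5) of the summed level of these 3 genes in controls and 98.6% ± 0.418 (SD, n = 4) in cKO. *Hcn4* made up 5.27 to 12.3% in controls and 0.491 to 1.03% in cKO. The ratio of *Hcn2* to *Hcn4* per kb ran from 7.06 to 17.8 (median 12.1) in controls and from 95.5 to 202 (median 138) in cKO. The summed level, 5.65 to 8.88 CPM per kb in controls and 6.83 to 10.9 in cKO, overlapped between the groups.

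**Figure D2:**
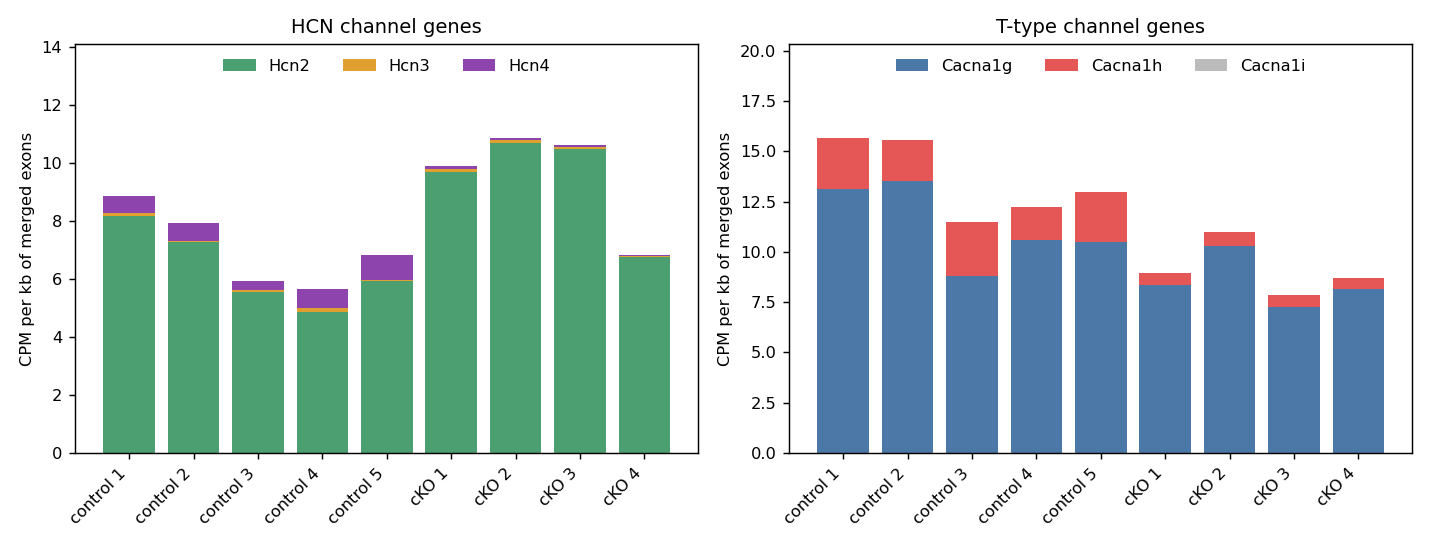
Stacked bars of CPM per kb of merged exons for *Hcn2*, *Hcn3* and *Hcn4* (left) and the T-type calcium channel genes (right), 1 bar per library, axes from 0. The *Hcn4* segment shrinks in all 4 cKO bars while *Hcn2* dominates throughout, and the *Cacna1h* segment shrinks in all 4 while *Cacna1g* dominates.

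*Cacna1h* (ENSMUSG00000024112, chromosome 17, 25374285 to 25433783) encodes the CaV3.2 pore subunit. Control replicates 1 to 5 had 24.3, 19.99, 26.1, 16.2 and 24.4 CPM, and cKO replicates 1 to 4 had 5.75, 6.73, 5.76 and 5.30 CPM. The cKO libraries lay close together and all below the controls. The mean fell from 22.2 ± 4.05 to 5.89 ± 0.603 CPM, 26.5% of the control mean (log2 fold change -1.91, SE 0.145, edgeR adjusted p = 5.195e-06; exact permutation p = 0.00794, the smallest possible). The log2 ratios of means were -1.86 and -2.07 for the 2 library sets in that order, and all 19 alternatives kept the call, from -2.01 to -1.82.

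*Cacna1g* (ENSMUSG00000020866, chromosome 11, 94408391 to 94474198) encodes CaV3.1, the other cardiac T-type pore subunit. Its levels were 133, 137, 89.4, 107 and 106 CPM in controls and 84.9, 104, 73.4 and 82.7 CPM in cKO. cKO replicate 2 was above control replicate 3, so the groups overlapped. The means were 115 ± 20.1 and 86.4 ± 13.1 CPM (log2 fold change -0.41, SE 0.135), and the adjusted p of 0.06161 by edgeR's quasi-likelihood test missed the threshold. The exact permutation test of this 1 gene gave p = 0.0397. The adjusted p fell under 0.05 without control replicate 3 (0.0249, log2 fold change -0.49), without cKO replicate 2 (0.0283, -0.51) and with the library set as a term (0.0102, -0.49). In the Rps3a3-low libraries alone the gene was called (log2 fold change -0.62, edgeR adjusted p = 0.0448). The log2 ratio of group means was -0.63 among Rps3a3-low and -0.29 among Rps3a3-high libraries. All 19 alternatives gave a lower level in cKO, from -0.62 to -0.30.

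*Cacna1g* was the more abundant T-type gene per kb in every library. The ratio of *Cacna1g* to *Cacna1h* per kb was 3.30 to 6.60 (median 5.28) in controls and 12.3 to 15.0 (median 14.6) in cKO, without overlap. *Cacna1h* accordingly made up 13.1 to 23.2% of the T-type level in controls and 6.23 to 7.53% in cKO. The summed level was 13.6 ± 1.92 CPM per kb in controls and 9.13 ± 1.34 in cKO, and the highest cKO library (11.01) was below the lowest control (11.5). *Cacna1i*, the T-type gene known mainly from neurons, had 12 counts in all controls together and 12 in all cKO libraries, and was not tested.

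*Shox2* (ENSMUSG00000027833, chromosome 3, 66971727 to 66981771) had 30, 40, 30, 29 and 34 counts in controls and 54, 57, 39 and 32 in cKO. In CPM these were 0.903, 1.16, 0.831, 0.912 and 1.10 in controls and 1.68, 1.51, 1.13 and 0.775 in cKO. The Rps3a3-high cKO replicate 4 was the lowest library of all, and cKO replicates 1 and 2 were the highest. The means of 0.981 ± 0.140 and 1.27 ± 0.405 CPM did not pass the test (log2 fold change 0.37, SE 0.252, edgeR adjusted p = 0.3555), nor did they in any of the 19 alternatives. *Shox2* shares 153 exon bases with *Rsrc1* on the opposite strand, which was at 28.4 CPM in controls and 27.0 CPM in cKO. *Hcn3* likewise shares 711 exon bases with *Pklr* (0.00554 and 0 CPM), and *Cacna1h* shares 158 with *Tpsg1* (0 and 0.0277 CPM). How the counting treated reads of shared bases is not given in the sources used here.

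*Isl1* (ENSMUSG00000042258, chromosome 13, 116298281 to 116309689) had 2 counts in control replicates 1 and 3 and in cKO replicate 1 and 0 counts in the other 6 libraries. All 9 libraries were under the floor of 3 counts, and no fold change is given. This defining factor of the sinoatrial node was at or near 0 in ventricles of both genotypes.

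**Figure D3:**
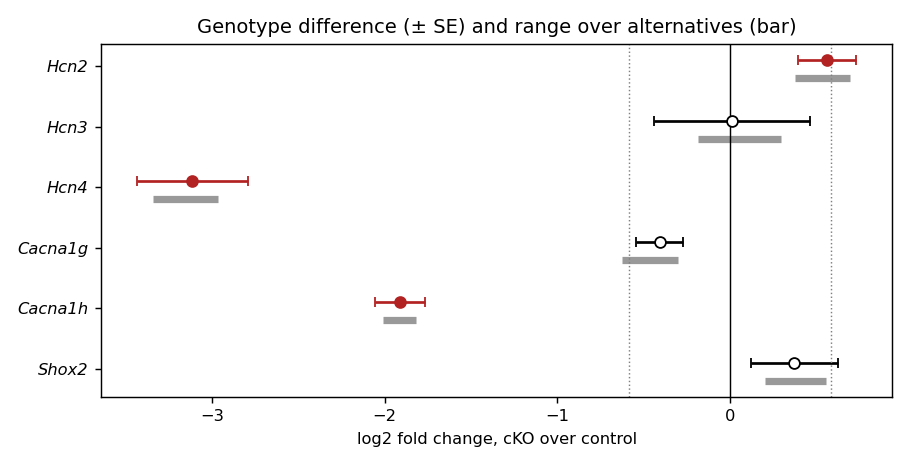
Log2 fold change of cKO over control for the 6 genes tested, with SE (points; red where the edgeR adjusted p is under 0.05) and the range over the alternative analyses (grey bars); dotted lines mark a fold of 1.5 in either direction. *Hcn4* and *Cacna1h* lie beyond the lower line with their whole ranges, and the bar of *Hcn3* spans 0.

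In controls the order of levels per kb was *Cacna1g* (8.82 to 13.5), *Hcn2* (4.87 to 8.18), *Cacna1h* (1.66 to 2.67), *Hcn4* (0.312 to 0.840), *Shox2* (0.251 to 0.350) and *Hcn3* (0.0418 to 0.114). Of neighbors in this order, only *Hcn4* and *Shox2* overlapped. In cKO *Hcn2* (6.75 to 10.7) and *Cacna1g* (7.24 to 10.3) overlapped, with *Hcn2* higher in replicates 1 to 3. *Hcn4* (0.0514 to 0.102) lay below *Shox2* (0.234 to 0.507) in cKO and overlapped *Hcn3* (0.0291 to 0.0973).

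Other genes of the channels, of the node and conduction system and of working ventricle were read from 6 lists, 78 of whose genes were tested beside the 7 above. Of the 78, 11 were called, 4 higher and 7 lower, or 14.1%, against 6.72% of all tested genes. The lists were chosen with earlier results of these data known, so their shares are descriptions and not tests. Among 13 tested partners of HCN and T-type channels only *Pex5l* was called, and the median log2 fold change was -0.09. *Pex5l*, whose product TRIP8b sets HCN channel trafficking, was low and rose from 0.423 ± 0.1004 to 0.916 ± 0.328 CPM (log2 fold change 1.11, SE 0.307, edgeR adjusted p = 0.02867), with overlap and a call lost in 8 of 18 alternatives. *Bves*, a cyclic AMP binding membrane protein, passed the adjusted p at a log2 fold change of 0.47. None of 17 genes of cyclic AMP supply and breakdown was called. The adjusted p was passed by 5 of the 17, against 16.3% of all tested genes: the adenylyl cyclases *Adcy5* and *Adcy6* and the kinase subunit *Prkaca* were lower (log2 fold changes -0.35, -0.39 and -0.33), and the phosphodiesterases *Pde3a* and *Pde8a* were higher (0.39 and 0.21). That count was 2 or 3 of 17 without any one of control replicates 1, 2, 4 and 5 and cKO replicates 1, 3 and 4, and it was 8 with a library set term and 7 by DESeq2. Of the 19 alternatives, the adjusted p was over 0.05 in 12 for *Adcy5*, 8 for *Pde3a* and 13 for *Pde8a*, and in 0 for *Adcy6* and 1 for *Prkaca*.

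Of 12 node patterning factors, *Tbx18* was the 1 called, near the 6.72% of all tested genes. *Tbx18*, a T-box factor of the sinus venosus that mural and epicardial cells also express, rose from 21.4 ± 2.60 to 32.2 ± 6.39 CPM without overlap (log2 fold change 0.59, SE 0.132, edgeR adjusted p = 0.00973), with the fold under 1.5 in 5 of 19 alternatives. *Tbx5*, *Gata6*, *Mef2c* and *Tbx3* passed the adjusted p below the fold threshold, all lower (-0.57, -0.50, -0.52 and -0.44), as 1230 of all 15318 tested genes were lower at the adjusted p. *Tbx5* was called in 5 of 19 alternatives. *Tbx3*, the T-box repressor of the working program in the conduction system, had an edgeR adjusted p of 0.04732 and overlapping groups, and it missed the threshold in 14 of 19 alternatives, among them the fits without any one of control replicates 2 to 5 and cKO replicates 2 to 4. Among 13 sinus node working genes, 2 were called, both lower, against 2.72% of all tested genes that were called lower. At the adjusted p alone 4 of the 13 passed, all lower, against 16.3% of all tested genes in either direction. In the Rps3a3-low libraries alone 1 passed. *Kcnj3*, a subunit of the acetylcholine-activated potassium channel, fell from 28.4 ± 3.86 to 1.68 ± 1.39 CPM (log2 fold change -4.10, SE 0.438, edgeR adjusted p = 0.0004044), further on this scale than *Hcn4*. *Cpne5*, a copine, fell from 1.89 ± 0.430 to 0.801 ± 0.307 CPM (log2 fold change -1.24, edgeR adjusted p = 0.01063), and was called in 17 of 19 alternatives.

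Of 11 ventricular conduction system genes, *Cntn2* and *Scn10a* fell and *Irx5* rose, 3 calls against 6.72% of all tested genes. *Cntn2*, a contactin of Purkinje cells, went from 8.70 ± 2.43 to 2.44 ± 1.26 CPM (log2 fold change -1.83, edgeR adjusted p = 0.003809), *Scn10a*, a sodium channel, from 4.54 ± 0.874 to 1.75 ± 0.455 CPM (-1.37, 0.0007985), and *Irx5*, an Iroquois factor, from 5.38 ± 0.705 to 8.83 ± 1.97 CPM (0.72, 0.00938; not called in the Rps3a3-low libraries alone). At the adjusted p alone 3 of the 11 were higher and 3 lower, against 16.3% of all tested genes in either direction. The median of the list was -0.04. Of 12 working ventricular genes, 4 were called, against the same 6.72%. The inward rectifier genes *Kcnj2* and *Kcnj12*, which hold the resting potential, fell with log2 fold changes of -1.18 and -2.11 (edgeR adjusted p = 7.59e-05 and 4.297e-06). *Kcnd2*, a pore subunit of the transient outward current, fell by 0.99 (0.004349), and *Kcnip2*, its accessory subunit, rose from 147 ± 34.9 to 507 ± 102 CPM (log2 fold change 1.79, edgeR adjusted p = 0.000205). At the adjusted p alone 1 of these 12 was higher and 6 were lower, against the same 16.3%. The median of the 12 was -0.28.

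**Figure D4:**
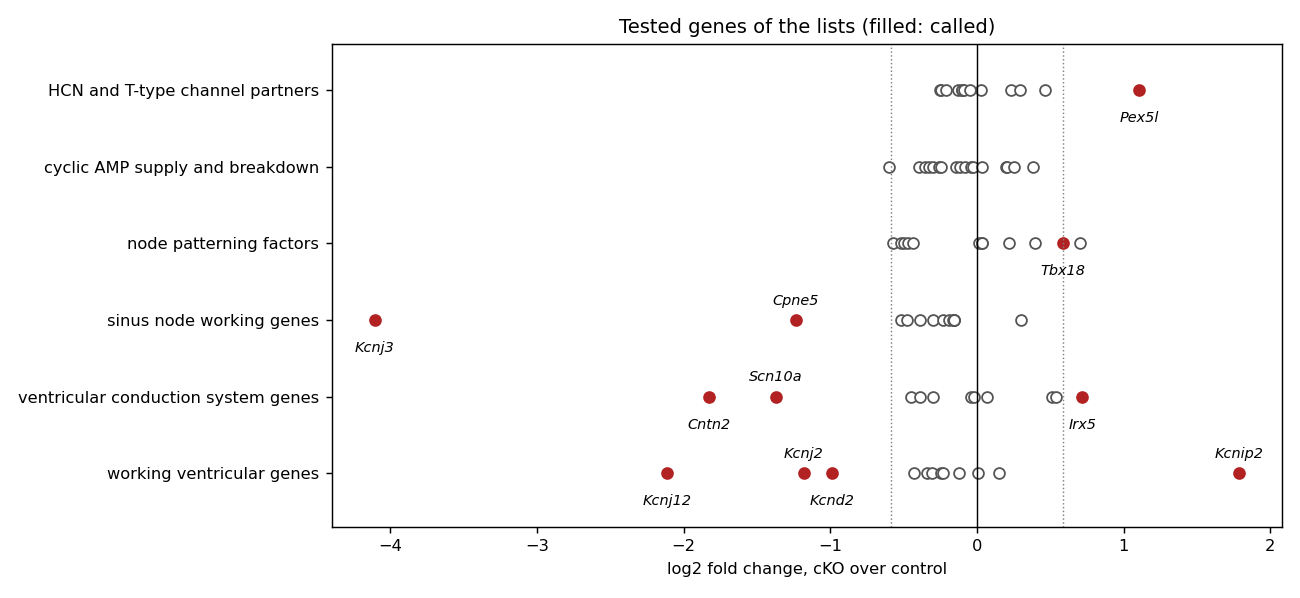
Log2 fold change of cKO over control for every tested gene of 6 lists (1 row per list); filled points with names are called by edgeR, and dotted lines mark a fold of 1.5. Called genes lie on both sides of 0, with *Kcnj3* lowest and *Kcnip2* highest.

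Markers of cell types that could carry these channels were checked in 10 lists, and their part in the results was not tested. The 9 contractile genes of cardiomyocytes, 0 of them called, summed to 53777 to 65063 CPM in controls and 49999 to 58852 CPM in cKO. Atrial markers (6 genes, 5 tested) summed to 108 to 202 and 186 to 253 CPM: *Myl7* rose by 1.20 on the log2 scale, *Stard10* fell by 1.44, and *Bmp10*, an atrial factor, was too low to test. Of 9 markers of cardiac neurons 3 were tested, and their sums were 5.82 to 8.08 and 7.94 to 12.3 CPM. Most of each sum was *Dbh*, which rose by 0.61 on the log2 scale; *Phox2a* and *Prph* did not pass the test (log2 fold changes -0.56 and -0.08), and *Chat*, *Th* and *Chrna3* had 3 counts or fewer in every library. Fibroblast markers summed to 2797 to 3539 and 3638 to 4324 CPM, with 3 of 6 higher at the adjusted p, as were 1263 of all 15318 tested genes, and 0 called. Mural markers summed to 1782 to 1890 and 1753 to 2102 CPM, endothelial to 1403 to 1502 and 1369 to 1463, epicardial to 22.7 to 75.9 and 21.1 to 32.7, Schwann cell to 10.3 to 14.8 and 6.42 to 13.8, skeletal muscle to 808 to 1417 and 649.6 to 1499, and macrophage to 56.9 to 96.6 and 65.8 to 121, with 0 genes called in any of these 6 lists. At the adjusted p alone, the epicardial *Wt1* (log2 fold change -0.40, edgeR adjusted p = 0.01278) and the endothelial *Tek* (-0.28, 0.01926) were lower. So were 1230 of all 15318 tested genes. Nearly all of the skeletal muscle sum was *Ckm*, a creatine kinase gene that cardiomyocytes also express (1073 and 995.5 CPM). *Myod1*, the defining skeletal muscle factor, was at 0 in every library.

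The nearest protein-coding genes on each side of the 7 genes, leaving out genes that overlap them, gave 14 neighbors. Of these, 12 were tested and 4 called, against 6.72% of all tested genes. Both neighbors of *Hcn4*, *Rec114* and *Neo1*, were not called (log2 fold changes 0.66 and 0.09), nor were *Abcc3* and *Spata20* beside *Cacna1g* (0.13 and 0.05). *Bsg* and *Polrmt* beside *Hcn2* were not called either (0.53 and 0.20), although *Bsg* passed the adjusted p (0.002351 by edgeR). The neighbor *Polrmt* ends 15 bases from *Hcn2* on the opposite strand. *Tpsb2*, a mast cell tryptase gene 5187 bases from *Cacna1h*, fell by 1.10 on the log2 scale (edgeR adjusted p = 0.04433), and *Tekt4* on its other side was too low to test. *Fdps* beside *Hcn3* rose by 0.65, with *Clk2* on the other side at -0.16. *Itga1* and *Veph1*, the neighbors called beside *Isl1* and *Shox2*, rose by 0.82 and 2.37 at distances of 1196317 and 674890 bases. On the other side of these genes, *Parp8* was not called (-0.02) and *Gm17402* had no counts.

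Likeness of level across the 9 libraries was described by Pearson's r of log2 CPM with 13235 genes, where the points share genotype and library set. *Hcn4* was most like *Pik3c2b* (r = 0.984), *Gm13111* (0.980) and *Ralgps1* (0.980), and *Cacna1h* most like *Secisbp2* (0.994), *Camk2g* (0.989) and *6430548M08Rik* (0.987). These 6 genes were lower in cKO at the edgeR adjusted p, with log2 fold changes of -0.63, -0.93, -0.51, -0.67, -0.51 and -0.32. *Hcn2* was most like *Gm12481* (0.978), *Tmem268* (0.971) and *Pycard* (0.970), *Cacna1g* most like *Maml1* (0.977), *Dennd1a* (0.949) and *Bbs1* (0.944), and *Shox2* most like *Pik3r5* (0.894), *Cbr2* (0.892) and *Ppp1r21* (0.892). None of these 9 genes passed the adjusted p between genotypes.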

How the data were processed

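Total RNA of P7 ventricles was sequenced as stranded mRNA libraries (Illumina TruSeq). The authors deposited raw counts per Ensembl gene as 1 table, whose 9 sample columns were matched to libraries by name. The submitters' processing notes name STAR 2.4.2a, HTSeq 0.6.1 and mm10. Which annotation was used, and whether counting used strand, is not given in the sources used here, so reads of overlapping opposite-strand genes cannot be told apart. The methods and a legend give different numbers of controls; every library labeled as a control was used. Nothing states that replicates were separate litters, and p-values measure the spread between these samples.

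Genes were tested in R 4.3.3 with edgeR 4.0.16 (filterByExpr with a minimum count of 10, TMM scaling, robust quasi-likelihood test, genotype as the term, two-sided, Benjamini-Hochberg over 15318 genes). The thresholds, an adjusted p under 0.05 and a fold over 1.5, follow the study's methods. Levels are CPM, and CPM per kb uses merged exons of GENCODE M21 (GRCm38, 1-based coordinates), which gave symbols to 36429 genes. Single genes were also compared by exact permutation of the group labels (126 assignments) on log2(CPM + 0.5). The fits were tested on simulated data. Libraries of 1 group had Spearman correlations of 0.982 to 0.995, and none was a duplicate. Counting floors cover counting error only. The alternatives were DESeq2 1.42.0, other scalings and filters, a replicate block, library set, Xist level as a covariate, the Rps3a3-low libraries alone, and leaving out each library.

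The genes and the lists were chosen with earlier results of these data known. The text names every one of the 7 genes, *Arid1a*, *Cacna1i*, each called gene of the lists, the nearest neighbors and the 3 genes most alike for each gene with a mean of at least 1 CPM; the other list genes and markers were named after their values were seen. Some list genes are not analysed here.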

Additional observations from a re-analysis of the deposited data

How the results depend on the processing

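The calls of *Hcn4* and *Cacna1h* held in all 19 alternatives, and *Shox2* passed the test in none of 19. *Hcn2* kept its direction in 19 but its adjusted p was over 0.05 with no filter on low counts (log2 fold change 0.56), in the Rps3a3-low libraries alone (0.41) and with the level of Xist as a covariate (0.57); its lowest value was 0.37 (adjusted p = 0.00725), in the fit with a library set term, and leaving out 1 library gave 0.48 to 0.69. It was called in 4 of the 19, by scaling to contractile genes (0.68) and in 3 fits that left out 1 library. *Cacna1g* passed the adjusted p by DESeq2 (-0.41), with the library set as a term (-0.49) and in the Rps3a3-low libraries alone (-0.62), and ranged from -0.51 to -0.34 with 1 library left out. *Hcn3* turned to -0.19 with the library set as a term and ranged from -0.19 to 0.28 with 1 library left out; it was filtered out at a mean of 1 CPM and without control replicate 1 or 4. Correlations of same-numbered libraries were 0.01 to 0.23 over 4 pairs, and 0 of 4 cKO libraries correlated best with their own number. So few pairs cannot show whether same-numbered libraries shared a litter or batch. With the replicate number as a block, in replicates 1 to 4, 879 genes were called, *Cacna1g* was at -0.43 (adjusted p = 0.0106), *Hcn2* at 0.54 (adjusted p = 0.0201) and *Hcn3* at -0.091. The count of 1030 called genes was 620 in the Rps3a3-low libraries alone, where fewer samples entered, 2493 with no fold threshold, 392 when the adjusted p had to be below 0.01 and the fold above 2, and 909 to 1171 with 1 library left out. The cause of the other changes was not tested. At this depth *Isl1* could not be compared, and *Hcn3* only coarsely.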
